A study of Mus musculus with 6 samples.

Results

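The classical histone deacetylases are zinc-dependent enzymes, and the transcripts of Hdac1 to Hdac10 were measured here in macrophages sorted from skin wounds of young and aged mice. The members were the rows of the deposited expected count table whose gene symbol is one of these 10 names. All 10 were found among 15168 genes, 4 of class I (Hdac1, Hdac2, Hdac3 and Hdac8) and 6 of class II, of which 4 are class IIa (Hdac4, Hdac5, Hdac7 and Hdac9) and 2 class IIb (Hdac6 and Hdac10). All 10 passed the filter on low counts and were among the 11878 genes tested. The remaining classical enzyme, Hdac11 of class IV, was not analysed here.

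The cells were F4/80+ CD64+ macrophages (CD45+ CD11b+ in the study's methods) of wild-type C57BL/6J female mice, taken 3 days after 2 full-thickness wounds of 10 mm had been made on the back of each mouse. There were 3 young samples from mice of 12 weeks and 3 aged samples from mice of 24 months, and the sample names carry the letters A, B and C in each age. RNA was amplified with a low-input kit and sequenced, which gave 15270103 to 17927483 counts per sample. The labels do not say that the samples came from separate animals, or which of the animal houses in Singapore and Manchester each came from, so p-values measure only the spread between these samples.

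Histone deacetylases remove acetyl groups from lysines and so oppose the acetyltransferases. Class I enzymes are mostly nuclear, and Hdac1, Hdac2 and Hdac3 work inside co-repressor complexes that sit on chromatin and repress genes, inflammatory genes of macrophages among them. Class IIa enzymes have little activity of their own on acetyl-lysine; they bind MEF2 transcription factors, bridge to the Hdac3 complex, and move out of the nucleus when kinases phosphorylate them and 14-3-3 proteins hold them in the cytoplasm. Class IIb enzymes are mainly cytoplasmic: Hdac6 deacetylates tubulin, and Hdac10 deacetylates polyamines.

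A codon of the catalytic domain is shown because it sets class IIa enzymes apart from the other members read here. The windows have 12 bases on each side of that codon, which is in capitals and follows a run of glycine codons. They were read from GENCODE M21 transcripts (GRCm38, the build called mm10) and are given in the sense of the gene.
Hdac1 (chr4:129518889-129518915, minus strand, exon 9): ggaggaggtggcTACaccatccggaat
Hdac2 (chr10:36997045-36997071, plus strand, exon 9): ggtggaggaggcTACacaatccggaat
Hdac4 (chr1:91945948-91945974, minus strand, exon 24): cttgagggaggcCATgacctgacagcc
Hdac5 (chr11:102196587-102196613, minus strand, exon 26): ctggagggaggcCATgacttgaccgcc
Hdac10 (chr15:89126061-89126217, minus strand, joined across exons 10 and 11): ttggagggtggcTACcacttggagtcc
The class I and class IIb members shown carry a tyrosine codon there, and the class IIa members a histidine codon. Both catalytic domains of Hdac6 and the domain of Hdac8 also had a tyrosine codon, and Hdac7 and Hdac9 a histidine codon. The codon of Hdac3 was not read here.

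A second set of sequences bears on how reads of Hdac1 can be counted. The processed pseudogene Hdac1-ps (chr17:78491582-78493025, plus strand, 1 exon) is an intronless copy of the Hdac1 transcript, and 1435 of its 1444 aligned bases are identical to those of Hdac1 (99.377%), with no gap. All 9 differences fall in the coding sequence of Hdac1. The 60 bases below hold 5 of them, in capitals.
Hdac1 (chr4:129522975-129523034, minus strand, exon 5): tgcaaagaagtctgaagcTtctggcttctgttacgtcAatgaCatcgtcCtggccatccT
Hdac1-ps (chr17:78492004-78492063, plus strand): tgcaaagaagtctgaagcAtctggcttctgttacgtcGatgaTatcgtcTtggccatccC
Of all the 150-base words (the read length) in the longest Hdac1 transcript, 37.321% occur unaltered in the transcript of another gene, which is Hdac1-ps or the annotated gene AC125456.1, whose counts were not analysed here. No 150-base word of any other member did.

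Of the 10 members 2 changed with age: Hdac4 rose and Hdac10 fell (adjusted p-value under 0.05 by the quasi-likelihood test of edgeR, adjusted over all tested genes by Benjamini-Hochberg). This is 1 of 10 members higher, beside 9.73% of all tested genes, and 1 of 10 lower, beside 7.97% of all tested genes, so the share of members called was near that of the genes at large. No class I member was called (0 of 4 in edgeR, DESeq2 and limma-voom, and 1, Hdac2, at an unadjusted p-value under 0.05 in edgeR, beside 3 of the 10 members and 34.5% of all tested genes), while 1 of 4 class IIa and 1 of 2 class IIb members were. Across the 10 members the median log2 fold change, aged minus young, was -0.24, against -0.02 over all tested genes. With the study's further threshold of more than 2-fold, only Hdac10 of the 10 was called, beside 8.79% of all tested genes.

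**Figure D1:**
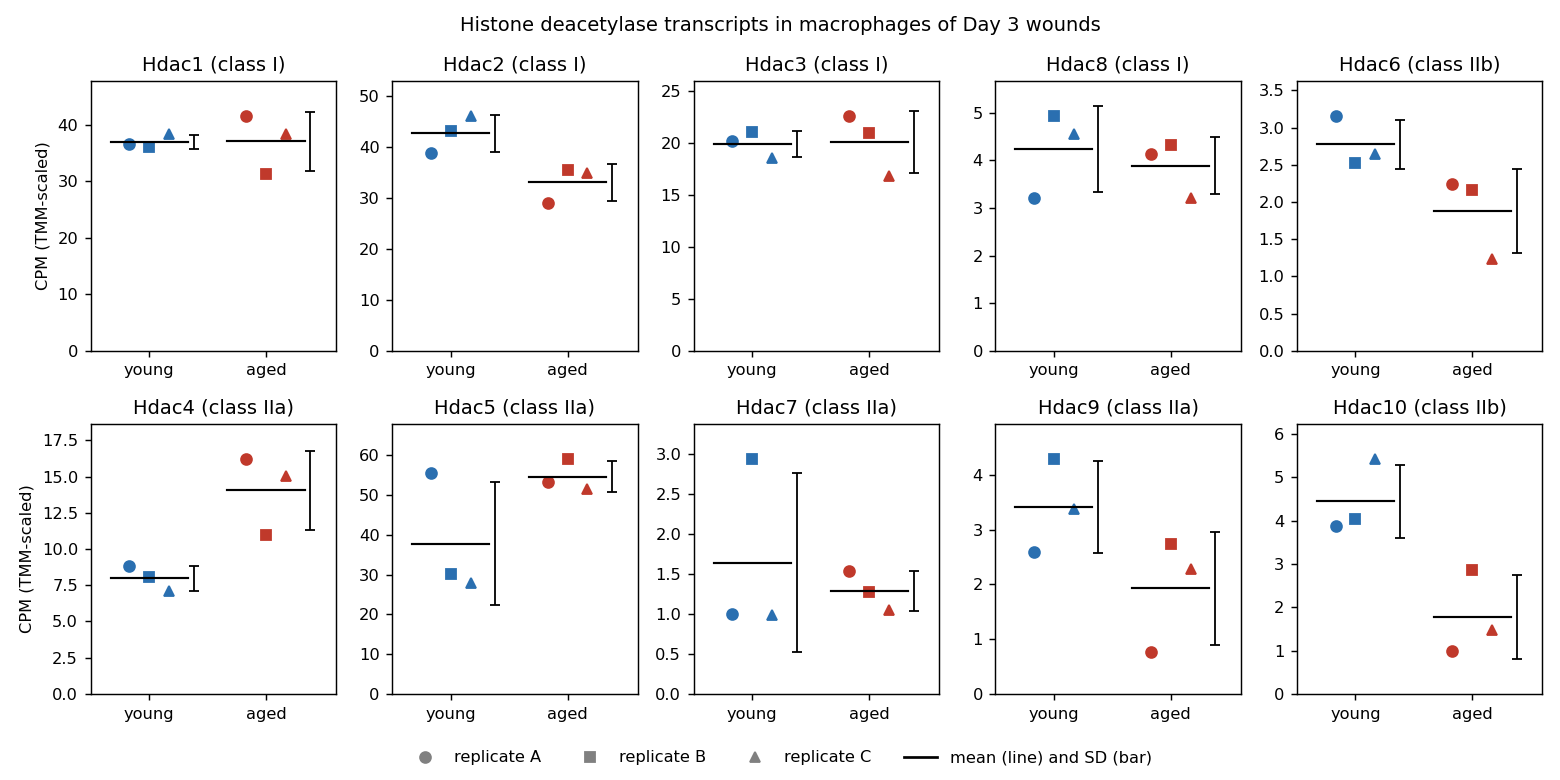
Level of each member in CPM (counts relative to the TMM-scaled library size; axes start at 0) in the 3 young and 3 aged samples; each point is 1 sample, lines are means and bars the SD. Aged points lie above young ones for Hdac4 and below them for Hdac2, Hdac6 and Hdac10; young replicate A stands high for Hdac5 and young replicate B for Hdac7.

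Sorted cells can differ in purity, and these values go with every result below. The 4 genes of the sort were present in every sample: Ptprc (CD45) averaged 210.4 ± 17.3 CPM over the young samples (mean ± SD, n = 3 throughout) and 251 ± 59.1 CPM over the aged ones, and Fcgr1 (CD64) 450.2 ± 24.3 and 499.8 ± 13.7 CPM. Itgam (CD11b) rose from 376 ± 36.7 to 749.9 ± 63.7 CPM and Adgre1 (F4/80) fell from 329 ± 35.3 to 203.9 ± 34.8 CPM (edgeR adjusted p = 0.00735 and 0.0292). The panel had no gate against Ly6G, and the summed level of 13 neutrophil markers was 717 to 1217 CPM in the young and 926 to 1583 CPM in the aged samples, with 4 higher and 0 lower, and Elane at 0 in every young sample. The summed level of 10 keratinocyte markers was 3.57 to 5.31 CPM in the young and 19.9, 200.3 and 10.4 CPM in aged A, B and C, without overlap, so that aged B stood far above the rest, and Krt1 was at 0 in every young sample. Those of 11 fibroblast markers (326 to 398 against 592 to 888 CPM), 10 T cell markers (70.8 to 112 against 159 to 187 CPM) and 10 endothelial markers (13.5 to 14.9 against 28.1 to 36.2 CPM) were also higher in all aged samples, but each through its most abundant gene, which was the only one of its list to rise: Fn1, Il7r and Pecam1. Without that gene the sums overlapped, at 37.96 to 63.7 against 20.6 to 192 CPM (the highest in aged B) for fibroblast, 4.69 to 9.73 against 3.46 to 5.67 CPM for T cell and 4.81 to 6.81 against 3.71 to 11.2 CPM for endothelial markers, and Cd4 fell (log2 fold change -1.76, edgeR adjusted p = 0.0386). The sum of 8 mast cell markers overlapped (101.7 to 173 against 119 to 404 CPM, Ms4a2 at 0 in every aged sample), but Hdc, its most abundant gene, rose, and without it the sum was 96.4, 47.7 and 26.6 CPM in young A, B and C and 67.2, 1.02 and 0.741 CPM in aged A, B and C. That of dendritic cell markers (9 genes, 31.2 to 81.5 against 42.6 to 113 CPM) overlapped as well. Of 18 proliferation markers 11 fell and 1 rose. Among those that fell were the replication helicase subunit Mcm2 (log2 fold change -1.86), the mitotic cyclin Ccnb1 (-1.88) and the survivin gene Birc5 (-1.98). The 1 that rose was Mki67 (1.13). Of the 6 fits that each dropped a sample, 6 called Mcm2, 3 called Birc5, 2 called Ccnb1 and 0 called Mki67. The part of these cells and states in the differences between members was not tested, and in bulk RNA fewer expressing cells and less RNA per cell cannot be told apart.

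Among the class I enzymes, the nuclear deacetylase Hdac1 (chr4:129516104-129542713, minus strand) was measured at 36.6, 36.0 and 38.4 CPM in young A, B and C and at 41.5, 31.3 and 38.4 CPM in aged A, B and C. The aged samples lay on both sides of the young ones. The log2 fold change was 0.00 with a 95% interval of -0.36 to 0.37 (edgeR adjusted p = 0.991). The row held 491 to 661 counts a sample, and it was the only member with fractional values in all 6 samples, as 19.7% of all tested genes were.

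The pseudogene row was above that of its parent gene in every sample. Hdac1-ps was at 46.0, 45.2 and 50.1 CPM in the young and 50.1, 52.2 and 48.1 CPM in the aged samples. Hdac1 took 43.4 to 44.4% of the summed counts of both rows in the young samples, and 45.3, 37.5 and 44.4% in aged A, B and C. Aged B, the lowest aged sample for Hdac1, was the highest for Hdac1-ps. Added together, the 2 rows came to 84.1 ± 3.86 CPM in the young and 87.2 ± 4.14 CPM in the aged samples, a log2 fold change of 0.05 (95% interval -0.27 to 0.38, edgeR adjusted p = 0.825). How much of either row came from which gene cannot be read from these counts, so the level of Hdac1 alone is uncertain.

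**Figure D2:**
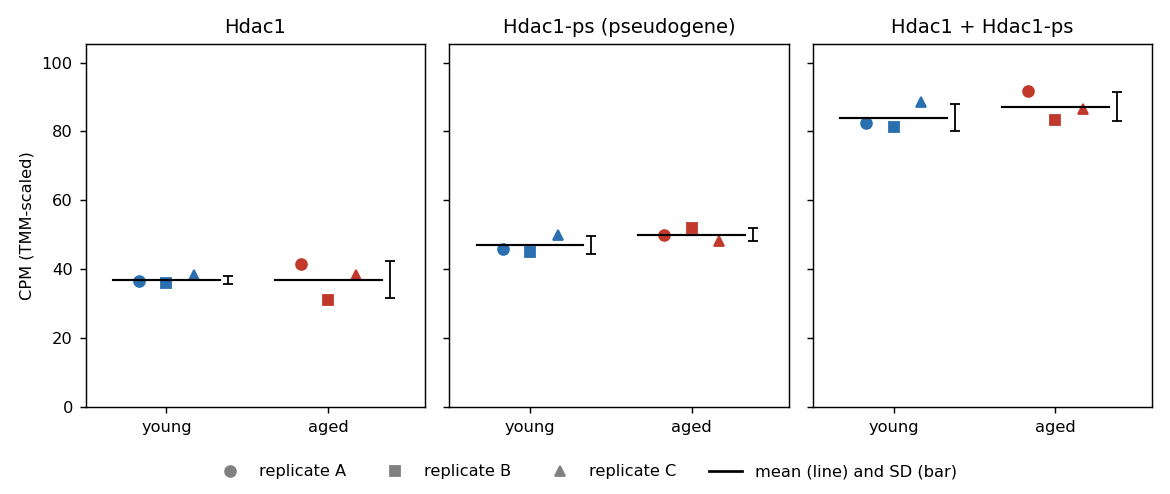
Levels of Hdac1, of its processed pseudogene Hdac1-ps and of both added together in CPM (TMM-scaled, shared axis from 0), 1 point per sample, with means as lines and SD as bars. The sum runs from 81.2 to 91.6 CPM over the 6 samples, and the aged B point is low for Hdac1 and high for Hdac1-ps.

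Hdac2 (chr10:36974544-37001889, plus strand), the close relative that shares the complexes of Hdac1, was at 38.8, 43.2 and 46.0 CPM in the young and 28.9, 35.4 and 34.96 CPM in the aged samples. Every aged sample was below every young one. The mean went from 42.7 ± 3.66 to 33.1 ± 3.62 CPM, with a log2 fold change of -0.37 (95% interval -0.73 to -0.00). This did not pass the test across all genes (edgeR unadjusted p = 0.0488, adjusted p = 0.142). Of the 10 members, 4 had groups that did not overlap, 1 higher (Hdac4) and 3 lower (Hdac2, Hdac6 and Hdac10), and so did 38.2% of all tested genes.

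Hdac3 is the catalytic subunit of the NCoR and SMRT co-repressors. It was at 20.1, 21.1 and 18.6 CPM in the young and at 22.6, 20.95 and 16.8 CPM in the aged samples, so that the aged samples spanned the young ones. The log2 fold change was 0.01 (95% interval -0.39 to 0.41, edgeR adjusted p = 0.971).

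Hdac8 (chrX:102284639-102505359, minus strand) deacetylates the cohesin subunit Smc3. It was at 3.21, 4.93 and 4.56 CPM in the young and 4.13, 4.33 and 3.21 CPM in the aged samples, from 52 to 84 counts a sample, and the groups overlapped. The log2 fold change of -0.12 had a wide interval (-0.77 to 0.53, edgeR adjusted p = 0.804), and no difference was called.

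The class IIa enzymes differed from each other in level and in the sign of the log2 fold change, but with all samples only Hdac4 was called in edgeR. Hdac4 (chr1:91928779-92195699, minus strand), a signal-responsive repressor of MEF2 targets, was at 8.79, 8.10 and 7.07 CPM in the young and 16.2, 10.9 and 15.01 CPM in the aged samples. All aged samples were above all young ones, with aged B nearest to them. From 107 to 159 counts in the young and 172 to 243 in the aged samples, the fold was 1.76 and the log2 fold change 0.81 (standard error 0.22, 95% interval 0.32 to 1.31, edgeR adjusted p = 0.0342). The log2 fold change stayed between 0.70 and 0.98 when each sample was left out in turn, but the adjusted p-value rose to 0.0880 without young B, 0.136 without young C, 0.0830 without aged A and 0.114 without aged C.

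Hdac5 (chr11:102194432-102230166, minus strand) is the close relative of Hdac4 and had the highest level per length in the class. It was at 55.5, 30.0 and 27.8 CPM in the young and 53.4, 59.0 and 51.6 CPM in the aged samples. Young A lay among the aged samples, and the other young samples lay far below them. Over all samples the log2 fold change was 0.53 (standard error 0.25, 95% interval -0.02 to 1.08, edgeR adjusted p = 0.161). Without young A it was 0.92, with an adjusted p-value of 0.00635. In the 5 fits that each dropped another sample it lay between 0.35 and 0.58, with adjusted p-values of 0.214 to 0.439.

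Hdac7 (chr15:97792664-97844502, minus strand), known from thymocytes and vessels, was low, at 15 to 50 counts a sample. It was at 0.996, 2.93 and 0.991 CPM in the young and 1.54, 1.27 and 1.05 CPM in the aged samples, so that young B alone stood high. The log2 fold change of -0.35 (95% interval -1.49 to 0.78, edgeR adjusted p = 0.660) turned to 0.38 without young B. In the annotation 29 exon bases of Hdac7 overlap exons of Slc48a1 on the opposite strand, and since the counting is not stated to use strand, reads from that overlap cannot be told apart.

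Hdac9 (chr12:34047580-34917095, minus strand), the fourth MEF2-binding enzyme, was at 2.60, 4.28 and 3.37 CPM in the young and 0.771, 2.74 and 2.29 CPM in the aged samples. Aged A was lowest, with 11 counts, while aged B was above young A. The log2 fold change was -0.81 (standard error 0.45, 95% interval -1.80 to 0.18, edgeR adjusted p = 0.225), as large as that of Hdac4 in the other direction but with a larger standard error. Leaving out aged A gave -0.44, and leaving out aged B gave -1.13.

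Of the class IIb enzymes, the tubulin deacetylase Hdac6 (chrX:7930120-7947889, minus strand) was at 3.15, 2.52 and 2.64 CPM in the young and 2.24, 2.17 and 1.24 CPM in the aged samples. All aged samples were below all young ones, but by little. With 20 to 57 counts a sample the log2 fold change was -0.56 (95% interval -1.36 to 0.24, edgeR adjusted p = 0.297), and -0.33 without aged C.

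Hdac10 (chr15:89123307-89128700, minus strand), which removes acetyl groups from spermidine, had the lowest log2 fold change of the 10. It was at 3.87, 4.05 and 5.42 CPM in the young and 0.981, 2.87 and 1.48 CPM in the aged samples, from 70, 69 and 82 counts in the young and 14, 45 and 24 counts in the aged samples. Every aged sample was below every young one, and aged B, the sample with the most keratinocyte marker RNA, was the nearest to them. The mean went from 4.45 ± 0.845 to 1.78 ± 0.976 CPM, a fold of 0.403 and a log2 fold change of -1.31 (standard error 0.41, 95% interval -2.21 to -0.41, edgeR adjusted p = 0.0489). The call was close to the threshold: the adjusted p-value was 0.0510 without young A, 0.0976 without young B, 0.181 without young C, 0.110 without aged A and 0.152 without aged C, and 0.0194 without aged B. In these fits the log2 fold change lay between -1.82 and -1.03.

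The study also designed a primer pair for Hdac10 for its sorted macrophages, which is shown because it marks where the transcript can be measured in another way. The primers lie in exons 14 and 15 of 20, give an amplicon of 125 bases on the Hdac10 transcript, and had both sites in the transcripts of 0 other genes.
Hdac10 forward (chr15:89125361-89125380, minus strand): ttccaggatgaggatcttgc
Hdac10 reverse (chr15:89124749-89124768, read from the plus strand): acatccaatgttgctgctgt

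**Figure D3:**
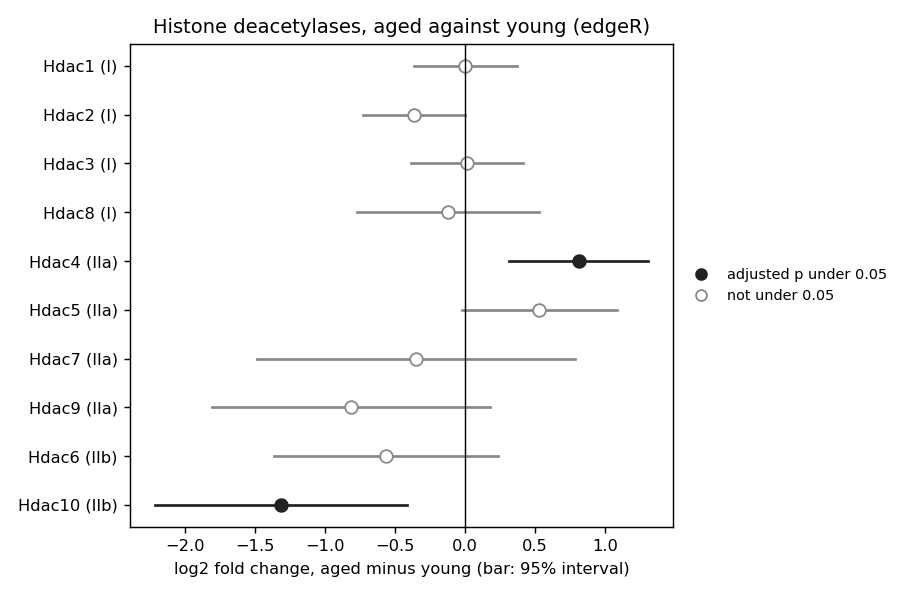
Log2 fold change, aged minus young, of each member with its 95% interval (edgeR quasi-likelihood test, 3 young and 3 aged samples); filled points have an adjusted p-value under 0.05. Only the intervals of Hdac2 (barely), Hdac4 and Hdac10 leave out 0, and those of the low genes Hdac7, Hdac8, Hdac9, Hdac6 and Hdac10 are wide.

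Levels of different genes were compared per length, as CPM divided by the length in kilobases of the longest protein-coding transcript. Hdac1 was highest, at 18.2 ± 0.605 CPM per kilobase in the young and 18.2 ± 2.58 in the aged samples, from its own row alone. Hdac2 (13.1 ± 1.13 and 10.2 ± 1.11), Hdac3 (9.80 ± 0.622 and 9.89 ± 1.46) and Hdac5 (7.79 ± 3.17 and 11.3 ± 0.790) followed, and their ranges over the 6 samples overlapped from one to the next. The 6 samples of Hdac1 lay above all 6 of Hdac2, and the 6 of Hdac5 above all 6 of the next gene, Hdac8. With the median transcript length Hdac1 (15.3 to 20.4) and Hdac2 (11.01 to 17.5 CPM per kilobase) overlapped.

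The low members formed a second step. Hdac8 (2.19 ± 0.467 and 2.01 ± 0.308 CPM per kilobase), Hdac4 (0.986 ± 0.107 and 1.73 ± 0.339), Hdac10 (1.84 ± 0.350 and 0.737 ± 0.405), Hdac6 (0.669 ± 0.0808 and 0.454 ± 0.135), Hdac7 (0.388 ± 0.265 and 0.305 ± 0.0582) and Hdac9 (0.430 ± 0.106 and 0.243 ± 0.130) each overlapped the next in this order. The order of the means differed in places between the ages, always among genes whose ranges over the samples overlapped. The mean of Hdac5 was below those of Hdac2 and Hdac3 in the young samples and above both in the aged ones. Not every sample followed its group: Hdac5 was above Hdac3 in young A, below Hdac3 in aged A and below Hdac2 in aged C. Hdac10 was above Hdac4 in every young sample and below it in every aged one. The mean of Hdac9 was above that of Hdac7 in the young samples only, but the samples were mixed. Hdac9 was below Hdac7 in young B (0.539 and 0.694 CPM per kilobase) and above it in aged B (0.345 and 0.301) and aged C (0.288 and 0.2485). These orders held in part with the longest transcript alone. With the median length Hdac4 was above Hdac10 in both ages. The means of Hdac9 were then above those of Hdac7, and the means of Hdac5 above those of Hdac3, in both ages. Over the 6 samples, however, Hdac9 (0.262 to 1.456) overlapped Hdac7 (0.251 to 0.744 CPM per kilobase). Hdac5 (7.40 to 15.69) likewise overlapped Hdac3 (8.27 to 11.1). With the median length of the coding transcripts in place of the longest, the level of Hdac4 over all samples was 4.52 in place of 1.36 CPM per kilobase, which put it above Hdac8, that of Hdac9 0.909 in place of 0.337, and that of Hdac2 14.4 in place of 11.7.

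**Figure D4:**
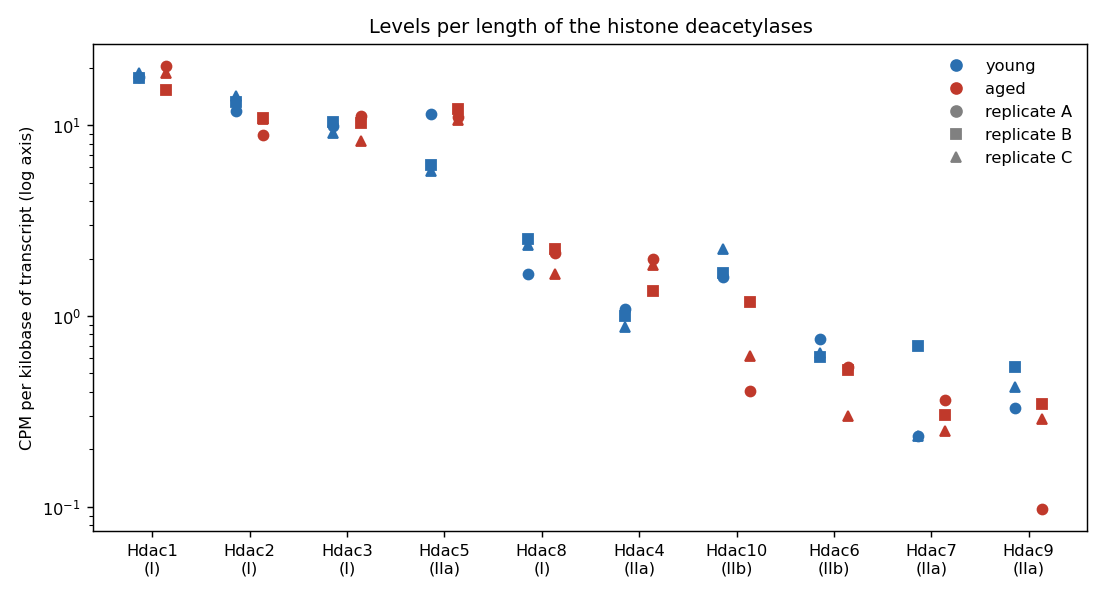
CPM per kilobase of the longest protein-coding transcript for each member (log axis), 1 point per sample, young in blue and aged in red, in order of the mean over 6 samples. Hdac1, Hdac2, Hdac3 and Hdac5 lie at 5.73 CPM per kilobase or more in every sample and the other members at 2.55 or less.

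Summed over the 10 members per length, class I made up most of the deacetylase transcripts. That share came to 72.8, 80.4 and 81.4% in the young and 74.7, 71.0 and 73.9% in the aged samples, where young A fell among the aged samples. Class IIa made up 23.0, 15.4 and 13.3% in the young and 23.7, 25.9 and 24.4% in the aged samples, which did not overlap, although young A was close to the aged samples, as it was for Hdac5. Class IIb made up 4.16, 4.19 and 5.28% in the young and 1.66, 3.13 and 1.71% in the aged samples, without overlap. With the median transcript length, the mean share of class I over the 6 samples was 68.8% in place of 75.7%. With the pseudogene counts added to Hdac1, the mean share of class I was 84.6 ± 3.55% in the young and 81.5 ± 1.11% in the aged samples.

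The enzymes act through partners and on substrates, and are opposed by acetyltransferases whose marks bromodomain proteins read; 12 lists held 141 genes of all these kinds, of which 135 were tested. Of these 17 were higher (12.6%, beside 9.73% of all tested genes) and 5 lower (3.70%, beside 7.97%) with an adjusted p-value under 0.05 in edgeR, and the median log2 fold change was 0.14. These calls rest on few samples: without young C 0 were higher and 0 lower, without young B 1 and 3, without aged C 2 and 1, without aged A 15 and 2, and without aged B 10 and 3, while without young A 26 were higher and 5 lower. Over all genes the counts without young C were 151 higher and 67 lower in place of 1156 and 947.

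The co-repressor complexes of class I were mixed. Of 12 subunits of NuRD, the nucleosome-remodelling complex, 0 rose and 1 fell, the histone chaperone Rbbp7 (76.7 ± 6.20 to 48.3 ± 4.73 CPM, log2 fold change -0.67, edgeR adjusted p = 0.0208). Of 13 SIN3 subunits 2 rose, Ing1 (20.3 ± 4.30 to 35.8 ± 1.85 CPM, log2 fold change 0.82), which reads methylated histone H3, and Sap30l (18.1 ± 3.46 to 31.8 ± 8.47 CPM, 0.81). Its paralogue Sap30, a bridging subunit, fell from 99.5 ± 14.3 to 45.6 ± 10.4 CPM, with a log2 fold change of -1.12 (edgeR adjusted p = 0.00914), and it stayed called in 5 of the 6 fits that each dropped a sample. Of 10 CoREST subunits the histone demethylase Kdm1a rose (27.3 ± 0.798 to 42.2 ± 5.69 CPM, log2 fold change 0.63, edgeR adjusted p = 0.0292). In the same 6 fits, 4 called Rbbp7, 3 called Ing1, and 2 each called Sap30l and Kdm1a.

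None of the 6 NCoR and SMRT genes and none of the 3 MiDAC genes passed the test in edgeR, DESeq2 or limma-voom, and at an unadjusted p-value under 0.05 in edgeR, which 34.5% of all tested genes had, there were 1 and 0. The median log2 fold changes were 0.09 for NuRD, -0.18 for SIN3, -0.07 for CoREST, 0.26 for NCoR and SMRT and -0.39 for MiDAC, against -0.02 over all tested genes. When each sample was left out in turn they ran from 0.04 to 0.175, from -0.22 to -0.07, from -0.14 to 0.04, from 0.08 to 0.31 and from -0.67 to -0.13, so that these small medians depend on single samples. Of the 12 tested genes of cohesin and its acetylation, the pathway of Hdac8, only the cohesin protector Cdca5 passed in edgeR. It fell from 1.63 ± 0.360 to 0.498 ± 0.219 CPM (log2 fold change -1.69, edgeR adjusted p = 0.0427). It is a gene of dividing cells, and it was called in 0 of the 6 fits that each dropped a sample. DESeq2 and limma-voom each called 3 genes of the cohesin list.

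Of 16 tested MEF2 factors, class IIa kinases and their binding proteins, 1 rose and 1 fell, and the median log2 fold change was 0.30. The rise was in Mark2 (17.9 ± 2.17 to 30.2 ± 1.71 CPM, log2 fold change 0.75, edgeR adjusted p = 0.0185), one of the kinases that phosphorylate class IIa enzymes. The calcium-dependent kinase Camk1 fell from 180 ± 49.7 to 95.4 ± 17.3 CPM (log2 fold change -0.91, edgeR adjusted p = 0.0249). Of the 7 14-3-3 proteins, which hold phosphorylated class IIa enzymes in the cytoplasm, 3 rose and 0 fell, and the median log2 fold change was 0.49 (0.80 without young A and 0.27 without young B). Ywhaz went from 918 ± 213 to 1609 ± 329 CPM (log2 fold change 0.81), Ywhag from 64.2 ± 19.8 to 116 ± 20.04 CPM (0.86), and Sfn from 1.66 ± 0.879 to 8.58 ± 7.01 CPM (2.36), with edgeR adjusted p-values of 0.0346, 0.0325 and 0.0329. The Sfn groups overlapped, with aged C (2.038 CPM) below young A (2.655 CPM). Sfn is also 1 of the keratinocyte markers, whose summed level was higher in every aged sample. When each of the 6 samples was dropped in turn, 3 fits called Mark2, 2 each called Camk1, Ywhaz and Sfn, and 1 called Ywhag.

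In the class IIb pathways, 1 of 10 genes of tubulin acetylation and the aggresome rose, the autophagy receptor Sqstm1 (1506 ± 302 to 2970 ± 688 CPM, log2 fold change 0.98, edgeR adjusted p = 0.0206). Of 12 tested genes of polyamine metabolism, the pathway of the substrates of Hdac10, 4 rose and 0 fell. The 3 with the highest log2 fold changes were the spermine oxidase Smox (394 ± 128 to 957 ± 188 CPM, log2 fold change 1.28), Odc1, the first enzyme of polyamine synthesis (609 ± 237 to 1325 ± 55.3 CPM, 1.12), and its regulator Azin1 (138 ± 42.5 to 293 ± 64.3 CPM, 1.09), with edgeR adjusted p-values of 0.0120, 0.0202 and 0.0178. Of the 6 fits that each dropped a sample, 5 called Smox and 3 each called Sqstm1, Odc1 and Azin1. The median of the list was 0.07, since its other genes lay on both sides of 0.

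**Figure D5:**
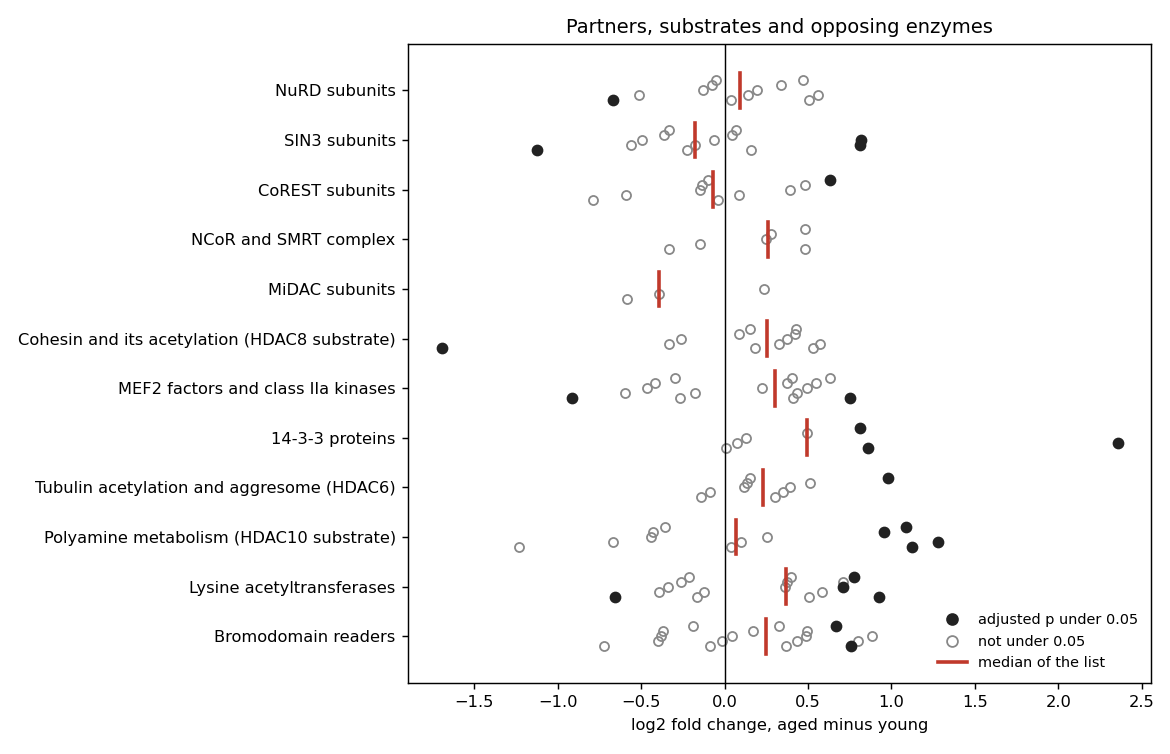
Log2 fold change, aged minus young, of the tested genes of 12 lists of partners, substrates, opposing enzymes and readers; each point is 1 gene, filled where the adjusted p-value was under 0.05 (edgeR), and red bars are list medians. Filled points lie mostly to the right, among them 4 polyamine genes and 3 14-3-3 genes, with Sap30, Rbbp7, Camk1, Cdca5 and the acetyltransferase Naa10 to the left.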

How the data were processed

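Macrophages were sorted from wounds 3 days after wounding and profiled by SMART-Seq v4 RNA-sequencing, 3 samples per age. The authors aligned reads with STAR 2.7.3a to mm10 and quantified Ensembl transcripts release 102 in Partek Flow, and deposited the resulting expected counts per gene without normalisation (30.7 to 34.0% of values not whole). Whether counting used strand is not given in the sources used here. A table of the authors' DESeq2 comparison (normalised values, fold changes and p-values) was not used.

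Expected counts were rounded and tested in R 4.3.3 with edgeR 4.0.16 (TMM scaling, filterByExpr, quasi-likelihood test, Benjamini-Hochberg adjustment over 11878 genes), after the method had been tested on simulated data. Calls needed an adjusted p-value under 0.05. The design written at the outset named counts, and expected counts were handled as that unit needs. Replicates within an age differed beyond sampling noise, and all 6 samples were kept. DESeq2 1.42.0 and limma 3.58.1 (voom), other filters and thresholds, a block on the set letter, leaving out each sample and, chosen after seeing the data, adding the counts of Hdac1 and Hdac1-ps were alternatives. Transcripts and lengths came from GENCODE M21, whose gene starts 14763 genes shared; deposited gene ends were 1 base past its ends in 99.7% of these and are printed 1 base lower. Members and lists were chosen with earlier results of these data known. Named were all members, the sort markers and, per list, called genes (at most 3 highest and 3 lowest log2 fold changes). Python 3.11.15 with matplotlib 3.10.9 and pandas 2.3.3 drew the plots.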

Additional observations from a re-analysis of the deposited data

How the results depend on the processing

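The direction of Hdac2, Hdac4, Hdac5, Hdac6, Hdac9 and Hdac10 was the same under every alternative run. Hdac4 was called under every alternative that kept all samples and a threshold on the adjusted p-value alone. Hdac10 had an adjusted p-value of 0.0546 with a log2 fold change of -1.31 without the filter on low counts, which left 0 members lower and 1 called in all, and it was the 1 member called with the threshold of an absolute log2 fold change over 1 (0 higher). Hdac5 was called by limma-voom with sample quality weights (log2 fold change 0.735, adjusted p = 0.0214), which gave 2 members higher. The near-zero log2 fold changes turned sign: Hdac1 to -0.0207 by limma-voom, -0.00907 with at least 10 counts in every sample and -0.00561 with the set letter as a block, and Hdac3 to -0.0460 by limma-voom. The replicate letters did not clearly pair the samples, and what they stand for is not stated in the sources used here. Deviations from the group means correlated at 0.181, -0.0206 and 0.114 for A, B and C. Aged B correlated best with young C (0.138). With the block, Hdac10 was at -1.41 and Hdac4 at 0.801, and 1202 genes were higher and 912 lower in place of 1156 and 947.

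Leaving out each sample in turn gave 0 to 2 members higher, 0 to 1 lower and 0 to 2 called in all, 4 to 7 members without overlap (beside 43.2 to 54.1% of all tested genes in the same comparisons of fewer samples), 151 to 1574 genes higher and 67 to 1128 lower, and 0 to 26 higher and 0 to 5 lower among the partner and pathway lists. Medians of the other lists ran from 0.186 to 0.352 for MEF2 and its kinases, 0.168 to 0.376 for cohesin, 0.0784 to 0.363 for tubulin and the aggresome, -0.000566 to 0.183 for polyamines, 0.242 to 0.429 for acetyltransferases and 0.0935 to 0.354 for bromodomain genes. The log2 fold changes then ran from -0.0832 to 0.125 for Hdac1, -0.0754 to 0.132 for Hdac3, 0.702 to 0.976 for Hdac4, 0.353 to 0.920 for Hdac5, -0.703 to -0.326 for Hdac6, -0.616 to 0.377 for Hdac7, -0.284 to 0.0131 for Hdac8, -1.13 to -0.440 for Hdac9 and -1.82 to -1.03 for Hdac10. limma-voom called 1933 genes higher and 1713 lower, and 33 and 10 in the lists; a threshold of 0.1 gave 1782 and 1582 genes, and one of more than 2-fold 545 and 499. With the median transcript length the levels were 14.4 for Hdac2, 4.52 for Hdac4 and 0.909 CPM per kilobase for Hdac9. The fits that leave one out rest on fewer samples, but without young A more genes were called than with all 6; the cause of these changes was not tested. Hdac6, Hdac7, Hdac9 and Hdac10 had 11 to 82 counts a sample, which limits their precision.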

Other observations

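The enzymes that add acetyl groups and the proteins that read them were measured in the same samples. Of 16 lysine acetyltransferase genes, 3 rose and 1 fell with an adjusted p-value under 0.05 in edgeR, where 9.73% of all tested genes were higher and 7.97% lower, and the median log2 fold change was 0.37, against -0.02 over all tested genes. The nuclear receptor coactivator Ncoa3 rose from 20.1 ± 3.84 to 38.1 ± 6.36 CPM (SD, n = 3, log2 fold change 0.92, edgeR adjusted p = 0.0172), Kat6a from 8.62 ± 0.517 to 14.7 ± 3.87 CPM (0.77, edgeR adjusted p = 0.0473) and the co-activator Crebbp from 12.6 ± 0.814 to 20.5 ± 3.77 CPM (0.71, edgeR adjusted p = 0.0351). Naa10, better known as an N-terminal acetyltransferase, fell from 37.8 ± 6.18 to 24.0 ± 2.94 CPM (-0.66, edgeR adjusted p = 0.0367).

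Of 18 tested bromodomain genes, which bind acetylated lysines, 2 rose and 0 fell, where 9.73% of all tested genes were higher and 7.97% lower. The 2 that rose were the chromatin remodelling factors Baz1a (50.7 ± 9.60 to 85.8 ± 14.5 CPM, log2 fold change 0.76, edgeR adjusted p = 0.0284) and Baz2b (27.1 ± 4.99 to 43.0 ± 7.64 CPM, 0.67, edgeR adjusted p = 0.0457). The adjusted p-value of these 6 genes was under 0.05 in 1 to 3 of the 6 fits that each left out 1 sample.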
